A study of Mus musculus with 4 samples.

Results

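Imprinted genes were examined across the 4 RNA-seq libraries of WT and Cripto KO mouse ESCs, as a set of 40 genes taken from known imprinted domains of the mouse. The genes were matched by Ensembl identifier and symbol, older aliases included, and 38 of the 40 were found among the 37620 genes of the raw count table. The antisense RNA Kcnq1ot1 and the noncoding RNA Peg13 were not matched in the count table, and no expression value is given for them. Of the 38 matched genes, 37 were among the 15462 genes that passed the filter on low expression, and the remaining one, the insulin gene Ins2, had 0 read counts in every library. The set was proposed with results of these data known, so its values below are a description, read beside the same values over all genes.

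The cells were R1 ESCs of strain 129/Sv, either WT or Cripto KO. Cripto (Tdgf1) is a membrane-anchored co-receptor of Nodal. Each genotype was sequenced in serum/LIF, where the cells are ESCs, and after 6 days at low density in N2B27 with activin A at 20 ng/ml and bFGF (F/A), a protocol that converts ESCs towards epiblast stem cells (EpiSCs). The 4 conditions, serum/LIF WT, F/A WT, serum/LIF Cripto KO and F/A Cripto KO, had 1 library each, and the labels do not say which of the Cripto KO clones of the study was sequenced.

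An imprinted gene is transcribed mainly from 1 parental chromosome, because DNA methylation laid down in the egg or the sperm marks an imprinting control region that directs the genes of its domain. Many paternally expressed members promote fetal growth, many maternally expressed members restrain it, and domains often pair protein-coding genes with a noncoding RNA transcribed from the other parental chromosome. Imprints are known to be lost in some ESC lines and culture conditions. The read counts used here sum both alleles, so they measure the amount of RNA and not the allele it came from.

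The libraries held between 15230856 and 17315442 read counts. Tdgf1 itself had 18714 counts in serum/LIF WT, 1572 in F/A WT, 945 in serum/LIF Cripto KO and 86 in F/A Cripto KO, lower in Cripto KO than in WT within each culture. In F/A Cripto KO nearly all counts were even, with 0.0160% of the detected genes at an odd count against 53.1% to 53.6% in the other libraries, so counts of that library were halved wherever a counting interval was computed. The labelled states were checked on marker genes. All 7 measured markers of naive ESCs were called lower in F/A in each genotype, and markers of primed epiblast were called higher for 6 of 7 in WT and 5 of 7 in Cripto KO. In F/A, 3 of the 7 primed markers were called lower and 0 higher in Cripto KO than in WT. Over all genes 3.57% were called lower and 3.18% higher. These 3 were Fgf5, Otx2 and Cer1, at 2206, 2375 and 467 counts in F/A WT and 394, 678 and 82 in F/A Cripto KO. Markers of trophoblast summed to 25.6 cpm (counts scaled to the library total) in serum/LIF WT, 2454 in F/A WT, 15.1 in serum/LIF Cripto KO and 2670 in F/A Cripto KO, with the late trophoblast genes Tpbpa and Prl3d1 at 0 in all libraries. The keratins Krt8 and Krt18, which simple epithelia share, made up, in F/A, 91.2% of the counts of this list in WT and 90.6% in Cripto KO cells. Bulk RNA was measured, so fewer cells of a type and less RNA per cell cannot be told apart.

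Folds below are ratios of the quantile-normalized values, while the counts given beside them are raw. A gene was called higher or lower when its fold was at least 2 and the 95% counting interval of the ratio excluded 1. With 1 library per condition the interval covers counting error only, no p-value was computed, and the difference between cultures of the same kind is unknown.

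The start regions of 4 genes of the Dlk1-Dio3 domain on chromosome 12 are shown because these genes parted in opposite directions in F/A Cripto KO. Each sequence is a promoter window of 300 bases over the annotated start, 5′ to 3′ on the strand of the gene, from RefSeq in build GRCm38.p6. Capitals mark TGCCGC or its reverse complement GCGGCA, the hexamer bound in its methylated form by the imprint-protecting factor ZFP57.
Dlk1, chr12:109452573-109452872, plus strand: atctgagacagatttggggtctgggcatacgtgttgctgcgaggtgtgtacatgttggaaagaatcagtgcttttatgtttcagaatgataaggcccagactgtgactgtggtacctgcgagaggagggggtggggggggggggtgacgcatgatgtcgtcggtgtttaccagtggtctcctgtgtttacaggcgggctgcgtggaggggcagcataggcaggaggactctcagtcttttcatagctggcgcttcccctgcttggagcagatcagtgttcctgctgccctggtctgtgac
Meg3, chr12:109540746-109541045, plus strand: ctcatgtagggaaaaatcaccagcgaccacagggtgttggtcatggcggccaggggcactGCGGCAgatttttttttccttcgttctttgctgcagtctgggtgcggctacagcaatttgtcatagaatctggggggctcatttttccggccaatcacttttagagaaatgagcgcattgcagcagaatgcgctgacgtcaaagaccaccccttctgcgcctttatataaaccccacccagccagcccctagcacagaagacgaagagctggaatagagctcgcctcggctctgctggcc
Rian, chr12:109603695-109603994, plus strand: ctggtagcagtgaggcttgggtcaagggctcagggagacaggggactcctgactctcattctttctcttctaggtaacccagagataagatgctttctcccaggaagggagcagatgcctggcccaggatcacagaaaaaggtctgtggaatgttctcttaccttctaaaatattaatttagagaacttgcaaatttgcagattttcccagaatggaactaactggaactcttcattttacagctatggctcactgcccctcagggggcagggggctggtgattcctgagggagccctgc
Mirg, chr12:109734731-109735030, plus strand: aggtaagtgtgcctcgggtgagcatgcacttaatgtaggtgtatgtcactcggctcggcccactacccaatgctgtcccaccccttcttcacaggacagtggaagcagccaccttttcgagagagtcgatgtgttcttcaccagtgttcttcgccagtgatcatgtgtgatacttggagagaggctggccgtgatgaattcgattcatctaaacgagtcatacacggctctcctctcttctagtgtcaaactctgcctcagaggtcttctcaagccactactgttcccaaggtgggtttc

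The hexamer was found once in the Meg3 window shown, in the reverse complement form, and in none of the windows of Dlk1, Rian and Mirg. These windows held 13 CG dinucleotides for Meg3, 9 for Dlk1, 10 for Mirg and 0 for Rian. A second annotated window of Meg3, at chr12:109545148-109545447, held 1 CG and no hexamer. Among 32851 promoter windows of RefSeq genes, 11.6% held the hexamer on either strand, against 22.9% of 48 windows of 32 imprinted genes, among them a window of Kcnq1ot1. The median number of CG dinucleotides was 13.5 in the windows of imprinted genes and 7.0 in all windows. The hexamer itself contains a CG, so its share cannot be set apart from this difference. Some windows of a gene also overlap, such as those of Mest starting at chr6:30737800 and chr6:30737803, which each held the hexamer. A match of letters is a description of the sequence and not a site of binding.

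In the Dlk1-Dio3 domain the paternally expressed protein-coding gene Dlk1 and the maternally expressed noncoding RNAs Meg3, Rian and Mirg were, in F/A Cripto KO, at the opposite ends of their ranges. The domain spans 828 kb in build NCBIM37, at chr12:110691033-111519307, and all 6 of its named members passed the filter. Dlk1 was called 30.0-fold higher and Meg3, Rian and Mirg were called 22.9-fold, 14.6-fold and 11.0-fold lower in Cripto KO than in WT cells in F/A. None of the 6 was called between the genotypes in serum/LIF.

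Dlk1, a transmembrane protein of the Notch ligand family that is also shed as a soluble factor, had 137 read counts in serum/LIF WT, 105 in F/A WT, 124 in serum/LIF Cripto KO and 3098 in F/A Cripto KO. Only the F/A Cripto KO library stood apart, and the other 3 lay close together. The F/A Cripto KO value was 30.0-fold that of F/A WT (95% interval 24.6 to 36.9) and 24.5-fold that of serum/LIF Cripto KO (20.4 to 29.7). In WT cells F/A was 0.841-fold serum/LIF (0.646 to 1.09), a ratio that the counts do not separate from 1. By rank of raw counts, Dlk1 stood at 10782 in F/A WT and at 979 in F/A Cripto KO.

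Meg3, a long noncoding RNA also called Gtl2, had 5190 counts in serum/LIF WT, 9569 in F/A WT, 3947 in serum/LIF Cripto KO and 472 in F/A Cripto KO. It rose 2.14-fold in F/A in WT (2.07 to 2.21) and fell 8.47-fold in F/A in Cripto KO (7.43 to 9.71). Meg3 was the only member called in opposite directions in the genotypes, a pattern shared by 19 of the 15462 genes (0.123%). In F/A it was 22.9-fold lower in Cripto KO than in WT (20.1 to 26.1), and in serum/LIF 1.26-fold lower (1.21 to 1.32), under the threshold.

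Rian, the noncoding RNA that hosts C/D box snoRNAs, had 4911, 6330, 3816 and 472 counts in serum/LIF WT, F/A WT, serum/LIF Cripto KO and F/A Cripto KO, the last of these the same number as for Meg3. It fell 8.17-fold in F/A in Cripto KO (7.16 to 9.35), against a ratio of 1.47 (1.42 to 1.53) in WT. Like Meg3, it was lowest in F/A Cripto KO and highest in F/A WT. Mirg, the host of a large miRNA cluster, had 293, 300, 191 and 24 counts in the same order. It fell 7.21-fold in F/A in Cripto KO (4.03 to 14.2), and its ratio in WT was 1.13 (0.961 to 1.34). The 3 noncoding RNAs were thus high in 3 libraries and low in the same one, and their proportions to each other differed most in F/A WT. The count ratio of Rian to Meg3 was 0.946 in serum/LIF WT, 0.662 in F/A WT, 0.967 in serum/LIF Cripto KO and 1.0 (0.831 to 1.2) in F/A Cripto KO. The ratio of Mirg to Meg3 was 0.0565, 0.0314, 0.0484 and 0.0508 in that order. By contrast, the ratio of Dlk1 to Meg3 was 0.0264, 0.0110 and 0.0314 in the first 3 libraries and 6.56 (5.72 to 7.56) in F/A Cripto KO.

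The other paternally expressed genes of the domain did not follow Dlk1. Rtl1, a retrotransposon-derived protein of placenta and fetal muscle, stayed between 34 and 48 counts in the 4 libraries. Dio3, the deiodinase that inactivates thyroid hormones, had 23, 86, 22 and 68 counts in serum/LIF WT, F/A WT, serum/LIF Cripto KO and F/A Cripto KO. It rose 4.62-fold in F/A in WT (2.89 to 7.67) and 3.36-fold in Cripto KO (1.91 to 6.03), and its F/A Cripto KO to WT ratio was 0.823 (0.537 to 1.24). Inside the domain 1 further gene passed the filter, the antisense RNA Gm17639, which shares 1228 exonic bases with Meg3. Its counts were 333, 429, 247 and 14 in the same order, and because the strand setting of the counting is not stated, its reads and those of Meg3 cannot be told apart. Within 500 kb outside the domain, 0 of 7 genes were called between Cripto KO and WT in F/A, with log2 ratios from -0.55 to 0.79. Of all genes 6.75% were called in this comparison, a share at which few calls would fall among 7 genes.

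**Figure D1:**
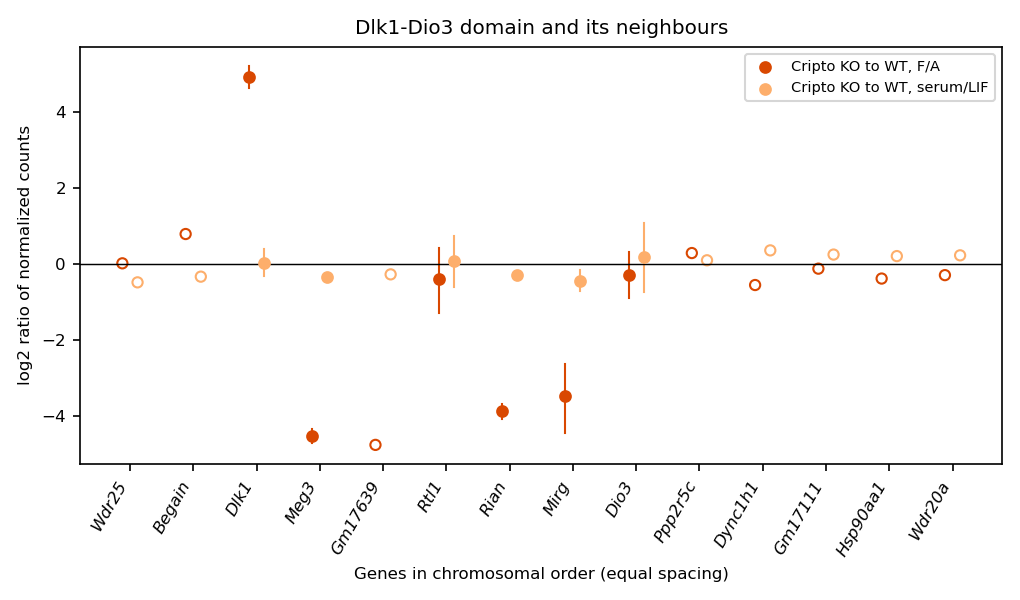
Log2 ratio of normalized counts, Cripto KO to WT, for genes in and around the Dlk1-Dio3 domain in chromosomal order, in F/A (dark) and serum/LIF (light). Filled points are members with their 95% counting interval and open points are other genes. In F/A Dlk1 lies at 4.91 and Meg3, Rian and Mirg lie between -4.52 and -3.46, while the flanking genes lie from -0.55 to 0.79.

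Most imprinted genes called between the cultures were higher in F/A, in each genotype. In WT cells 20 of the 37 members were called higher and 3 lower in F/A, where 22.0% of all 15462 genes were called higher and 20.9% lower. In Cripto KO cells 19 members were called higher and 4 lower, against 19.3% and 18.4% of all genes. The median log2 ratio of the members was 1.2 in WT and 1.12 in Cripto KO, and that of all genes was -0.07 in each. The transitions of the genotypes do not share a library, and 17 members (45.9%) were called higher in both, against 16.0% of all genes. These 17 were Dio3, H19, Igf2, Airn, Cdkn1c, Mest, Peg3, Zim1, Peg10, Sgce, Ndn, Magel2, Peg12, Grb10, Nnat, Gnas and Inpp5f. Ascl2 was the 1 member called lower in both (2.70%), against 14.4% of all genes. In neither transition 10 members (27.0%) were called, against 7730 of all 15462 genes.

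The matched genes of the set took up 0.255% of all counts in serum/LIF WT, 1.19% in F/A WT, 0.278% in serum/LIF Cripto KO and 1.26% in F/A Cripto KO. The 43 further imprinted genes matched, counted separately below, went the other way in sum, from 2749 to 2044 cpm in WT and from 3011 to 1888 cpm in Cripto KO. These sums lean on the abundant genes Cobl, Gab1 and Phf17. Their counts fell from 7441, 6792 and 5563 to 625, 1599 and 835 in WT, and from 6777, 7002 and 7177 to 420, 1516 and 778 in Cripto KO. Among the 35 further genes that passed the filter, 9 were called higher and 10 lower in WT, and 7 and 9 in Cripto KO. The makeup of the set differed between the F/A libraries. Peg3 supplied 28.1% of the counts of the members in WT and 16.6% in Cripto KO cells, H19 supplied 6.66% and 18.5%, and Igf2 supplied 10.3% and 15.6%. Meg3 supplied 11.7% in serum/LIF WT, 5.28% in F/A WT, 8.74% in serum/LIF Cripto KO and 0.238% in F/A Cripto KO.

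**Figure D2:**
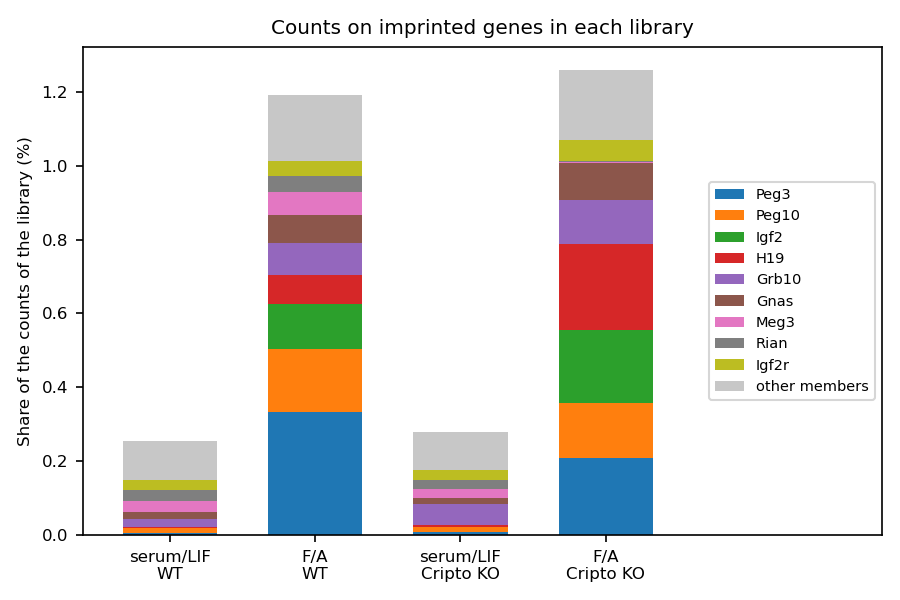
Stacked bars of the share of each library's counts, in percent, that fell on imprinted genes, with 9 genes shown by colour and the rest in light grey. The bars reach 0.255% and 0.278% in serum/LIF and 1.19% and 1.26% in F/A, and the bands of Meg3 and Rian are thin in F/A Cripto KO.

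By parental origin, 13 of 22 paternally expressed members were called higher and 1 lower in F/A in WT, and 14 higher and 0 lower in Cripto KO. Of 14 maternally expressed members, 6 were called higher and 2 lower in WT, and 4 higher and 4 lower in Cripto KO. The median log2 ratio was 1.26 in WT and 1.98 in Cripto KO for the paternally expressed members, and 0.64 and 0.47 for the maternally expressed ones. The maternally expressed members called lower in Cripto KO were Meg3, Rian, Mirg and Ascl2, of which the first 3 belong to a single domain. Origin is as known for the gene and was not measured here. It can hold in some tissues or isoforms only, as given below for Ube3a and Inpp5f, which were still counted by that origin. Gnas, a locus with transcripts of several origins, was kept apart.

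**Figure D3:**
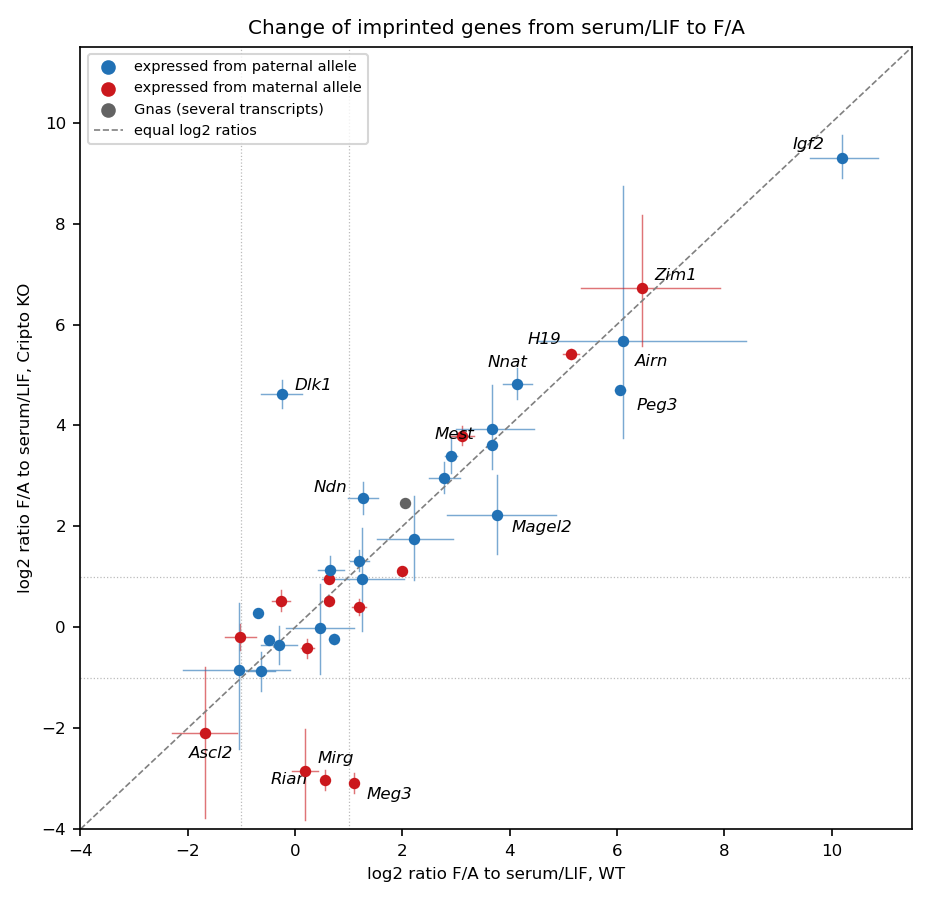
Log2 ratio of F/A to serum/LIF in WT (x axis) and in Cripto KO (y axis) for the 37 imprinted genes, coloured by the parental allele they are expressed from, with 95% counting intervals as bars, the line of equal ratios dashed and the fold threshold dotted. Most genes lie near the dashed line, Dlk1 lies above it at -0.25 and 4.62, and Meg3, Rian and Mirg lie below it with ratios in Cripto KO from -3.08 to -2.85.

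Igf2, on distal chromosome 7 beside H19, had the widest range of the 37 members over the 4 libraries, and both genes rose in F/A in each genotype. Igf2, the fetal growth factor insulin-like growth factor 2, is expressed from the paternal allele, and the noncoding RNA H19 from the maternal allele. Igf2 had 22 counts in serum/LIF WT, 18608 in F/A WT, 49 in serum/LIF Cripto KO and 30974 in F/A Cripto KO. It rose 1176-fold in F/A in WT (777 to 1878) and 636-fold in Cripto KO (481 to 860), and by counts it was the gene of rank 48 in F/A WT and of rank 23 in F/A Cripto KO. H19 had 408, 12078, 922 and 36622 counts in serum/LIF WT, F/A WT, serum/LIF Cripto KO and F/A Cripto KO. It rose 35.3-fold in F/A in WT (32.0 to 39.1) and 42.5-fold in Cripto KO (39.8 to 45.5).

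H19 was higher in Cripto KO than in WT cells in each culture, 2.95-fold in F/A (2.88 to 3.02) and 2.45-fold in serum/LIF (2.18 to 2.76). Igf2 was 2.75-fold higher in serum/LIF Cripto KO (1.63 to 4.78), on 49 and 22 counts, and its ratio in F/A was 1.49 (1.46 to 1.52), under the threshold. The count ratio of Igf2 to H19 was 0.0539 in serum/LIF WT, 1.54 in F/A WT, 0.0531 in serum/LIF Cripto KO and 0.846 in F/A Cripto KO. Within each genotype this ratio was more than an order of magnitude larger in F/A, and in F/A it was lower in Cripto KO. The antisense gene Igf2as, which shares 98 exonic bases with Igf2, had 2, 843, 4 and 1352 counts in the same order, and reads of the pair cannot be told apart in the shared bases.

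Igf2r, the maternally expressed receptor that carries Igf2 to the lysosome, had a 2.05-fold range over the 4 libraries. Its counts were 4575, 6297, 4593 and 8738 in serum/LIF WT, F/A WT, serum/LIF Cripto KO and F/A Cripto KO, and its F/A to serum/LIF ratios were 1.56 (1.5 to 1.62) in WT and 1.95 (1.87 to 2.03) in Cripto KO. These ratios lay under the threshold. They were called, at log2 values of 1.18 and 1.12, when the running median over transcript length was removed. That removal used the median annotated transcript of Igf2r, 532 bases against 9438 merged exonic bases, so it treated a long gene as a short one. Airn, the paternally expressed antisense RNA that starts within Igf2r, had 3, 153, 2 and 98 counts in the same order. Its F/A to serum/LIF ratio was 69.0 in WT (23.2 to 338) and 50.9 in Cripto KO (13.4 to 432), with intervals this wide because its serum/LIF counts were 2 and 3. Of the Igf2r domain, then, the antisense RNA was called higher in F/A in both genotypes and the receptor in neither.

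Grb10, an adaptor that restrains insulin and growth factor receptors, is maternally expressed and had 3783, 12965, 9147 and 18666 counts in serum/LIF WT, F/A WT, serum/LIF Cripto KO and F/A Cripto KO. It rose 3.96-fold in F/A in WT (3.82 to 4.11) and 2.17-fold in Cripto KO (2.11 to 2.23). The gap between genotypes lay in serum/LIF, where Cripto KO was 2.49-fold higher (2.39 to 2.58), and the ratio in F/A was 1.36 (1.32 to 1.40).

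In the Kcnq1 domain of chromosome 7 the maternally expressed members took different courses. Cdkn1c, the cyclin-dependent kinase inhibitor p57Kip2, had 201, 1588, 277 and 3956 counts in serum/LIF WT, F/A WT, serum/LIF Cripto KO and F/A Cripto KO. It rose 8.64-fold in F/A in WT (7.45 to 10.1) and 14.0-fold in Cripto KO (12.3 to 15.9), and in F/A it was 2.53-fold higher in Cripto KO (2.37 to 2.70). Phlda2, a pleckstrin homology domain protein that restrains placental growth, had 334, 153, 383 and 348 counts. It stood low in the F/A WT library alone, and in F/A Cripto KO was 2.23-fold higher (1.79 to 2.79). Its fall in F/A in WT was 2.02-fold (1.67 to 2.47), a call that was lost under total-count, TMM and DESeq2 scaling. Ascl2, a basic helix-loop-helix factor needed by the trophoblast, had 113, 31, 51 and 10 counts in the same order. It fell 3.19-fold in F/A in WT (2.13 to 4.92) and 4.29-fold in Cripto KO (1.72 to 13.8), and in F/A it was 2.65-fold lower in Cripto KO, with an interval of 1.02 to 8.74 that nearly reaches 1. Tssc4, another gene of the domain, had 646, 497, 481 and 710 counts and was called in no comparison.

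Mest and H19 were the members called between the genotypes in both cultures (5.41% of the members, against 0.524% of all genes). Ascl2 joined them under total-count, TMM and DESeq2 scaling. Mest, a hydrolase fold protein of mesoderm also called Peg1, is paternally expressed and had 688 counts in serum/LIF WT, 4735 in F/A WT, 84 in serum/LIF Cripto KO and 920 in F/A Cripto KO. It was 7.56-fold lower in Cripto KO than in WT cells in serum/LIF (6.02 to 9.60) and 5.35-fold lower in F/A (4.86 to 5.90). It rose in F/A in each genotype, 7.49-fold in WT (6.91 to 8.13) and 10.6-fold in Cripto KO (8.38 to 13.5), a log2 difference of 0.50. Copg2, a subunit of the COPI vesicle coat whose gene ends on the opposite strand within Mest and shares 904 exonic bases with it, had 1992, 2889, 1642 and 2288 counts and was called in no comparison. Because the strand setting of the counting is not stated, reads of Mest and Copg2 cannot be told apart in the shared bases.

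The Peg3 domain held the member with the highest count. Peg3, a zinc finger protein that controls growth and maternal behaviour, is paternally expressed. Its start region overlaps by 263 bases the start region of Usp29 on the opposite strand. It is shown because the counts of Peg3 and of the annotated Usp29 model took different courses.
Peg3, chr7:6730370-6730669, minus strand: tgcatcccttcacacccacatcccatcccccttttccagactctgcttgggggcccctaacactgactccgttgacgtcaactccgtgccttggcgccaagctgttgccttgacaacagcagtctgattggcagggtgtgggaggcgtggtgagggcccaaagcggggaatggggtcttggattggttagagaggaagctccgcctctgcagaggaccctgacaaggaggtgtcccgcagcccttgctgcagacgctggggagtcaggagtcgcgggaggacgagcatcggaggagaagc

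This window held 13 CG dinucleotides and no TGCCGC hexamer. Peg3 had 928 counts in serum/LIF WT, 50910 in F/A WT, 1332 in serum/LIF Cripto KO and 32902 in F/A Cripto KO. It rose 66.8-fold in F/A in WT (62.6 to 71.3), where it became the gene of rank 7 by counts, and 26.1-fold in Cripto KO (24.7 to 27.6), where it had rank 19. In F/A the Cripto KO value was 1.70-fold lower (1.67 to 1.73), under the threshold. Zim1, a maternally expressed zinc finger protein, had 6, 405, 6 and 586 counts in serum/LIF WT, F/A WT, serum/LIF Cripto KO and F/A Cripto KO. It rose 88.4-fold in WT (40.3 to 242) and 106-fold in Cripto KO (47.9 to 290). Usp29, a ubiquitin-specific protease, stayed between 12 and 35 counts, and was called lower in F/A in WT (2.07-fold, 1.07 to 4.26), where the count was 13 against 35 in serum/LIF, a call that was lost when 5 was added to every value. The annotation of Usp29 covers only chr7:6913871-6916480 in build NCBIM37, where Peg3 starts at 6683132. The counted Usp29 model thus leaves out the shared start region, and its counts do not measure the output of that start.

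On proximal chromosome 6, Peg10, a retrotransposon-derived protein essential for the placenta, and Sgce, epsilon-sarcoglycan, are adjacent, paternally expressed and divergently transcribed. Peg10 had 2470, 25665, 2038 and 23442 counts in serum/LIF WT, F/A WT, serum/LIF Cripto KO and F/A Cripto KO, and rose 12.7-fold in WT (12.2 to 13.3) and 12.2-fold in Cripto KO (11.6 to 12.8). Sgce had 116, 727, 109 and 884 counts and rose 6.89-fold (5.66 to 8.45) and 7.78-fold (6.29 to 9.68). These neighbours rose in each genotype, and neither was called between the genotypes. Ppp1r9a, the actin-binding protein neurabin and a maternally expressed gene of the same region, had 1118, 1250, 916 and 696 counts and was called in no comparison.

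In the Snrpn domain of chromosome 7, the Prader-Willi and Angelman syndrome region, Ndn, Magel2 and Peg12 rose in F/A in each genotype, while Snrpn and Mkrn3 were called in no comparison. Snrpn, a spliceosomal protein at the imprinting centre, had 3999, 2643, 3206 and 2562 counts in serum/LIF WT, F/A WT, serum/LIF Cripto KO and F/A Cripto KO. Ndn, the MAGE family growth suppressor necdin, had 166, 355, 116 and 708 counts and rose 2.41-fold in F/A in WT (1.99 to 2.91) and 5.88-fold in Cripto KO (4.75 to 7.31). Its F/A ratio of Cripto KO to WT was 1.92 (1.66 to 2.24), just under the threshold. Ndn was thus highest in F/A Cripto KO. Magel2, another MAGE family protein, had 10, 103, 22 and 96 counts and rose 13.6-fold in WT (7.11 to 29.2) and 4.65-fold in Cripto KO (2.75 to 8.09). The libraries in which Magel2 parted by genotype were those in serum/LIF, at 2.77-fold on 22 and 10 counts (1.26 to 6.56). Peg12, a relative of the GSK3-binding Frat proteins, had 19, 192, 15 and 224 counts and rose 12.8-fold (8.0 to 21.8) and 15.2-fold (8.81 to 28.0).

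Mkrn3, a makorin ring finger protein of the same domain, had 181, 135, 200 and 164 counts in serum/LIF WT, F/A WT, serum/LIF Cripto KO and F/A Cripto KO. Ube3a, an E3 ubiquitin ligase expressed from the maternal allele in neurons, had 713, 1540, 912 and 1228 counts. It rose 2.29-fold in F/A in WT (2.10 to 2.51), with a ratio of 1.32 in Cripto KO (1.19 to 1.47). The call in WT was lost when the running median over transcript length was removed.

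Of the remaining members outside these domains, Nnat and Gnas had the widest ranges. Nnat, the paternally expressed neuronatin gene in an intron of Blcap, had 128, 2011, 95 and 2654 counts in serum/LIF WT, F/A WT, serum/LIF Cripto KO and F/A Cripto KO, and rose 17.6-fold in WT (14.7 to 21.3) and 28.4-fold in Cripto KO (23.0 to 35.3). Gnas, the stimulatory G protein alpha subunit, had 3335, 11731, 2950 and 15928 counts and rose 4.14-fold (3.98 to 4.30) and 5.55-fold (5.32 to 5.79). The antisense gene model AF085738 shares 1469 exonic bases with Gnas and had nearly its counts in each library, at 3208, 11159, 2707 and 15430, so reads of this pair cannot be told apart. Inpp5f, an inositol phosphatase with an imprinted brain isoform, had 394, 841, 352 and 912 counts, and rose 2.30-fold (2.04 to 2.60) and 2.50-fold (2.17 to 2.88).

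Plagl1, a zinc finger factor also called Zac1, had 241, 341, 218 and 514 counts in serum/LIF WT, F/A WT, serum/LIF Cripto KO and F/A Cripto KO. It rose 2.20-fold in Cripto KO (1.83 to 2.65), with a ratio of 1.58 in WT (1.34 to 1.87). Zrsr1, Impact and Slc38a4 were called in no comparison. Zrsr1, a U2AF1-related splicing protein in an intron of Commd1, with which it shares 203 exonic bases, had 318, 186, 265 and 152 counts. Impact, an inhibitor of the kinase GCN2, had 2045, 3119, 2612 and 2112 counts. Slc38a4, an amino acid transporter of placenta and liver, had 4587, 2623, 3963 and 4750 counts. Slc38a4 was lowest in F/A WT. Nap1l5, a relative of the nucleosome assembly proteins, stayed between 20 and 45 counts and was called higher in F/A in WT only, at 2.38-fold (1.42 to 4.08).

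**Figure D4:**
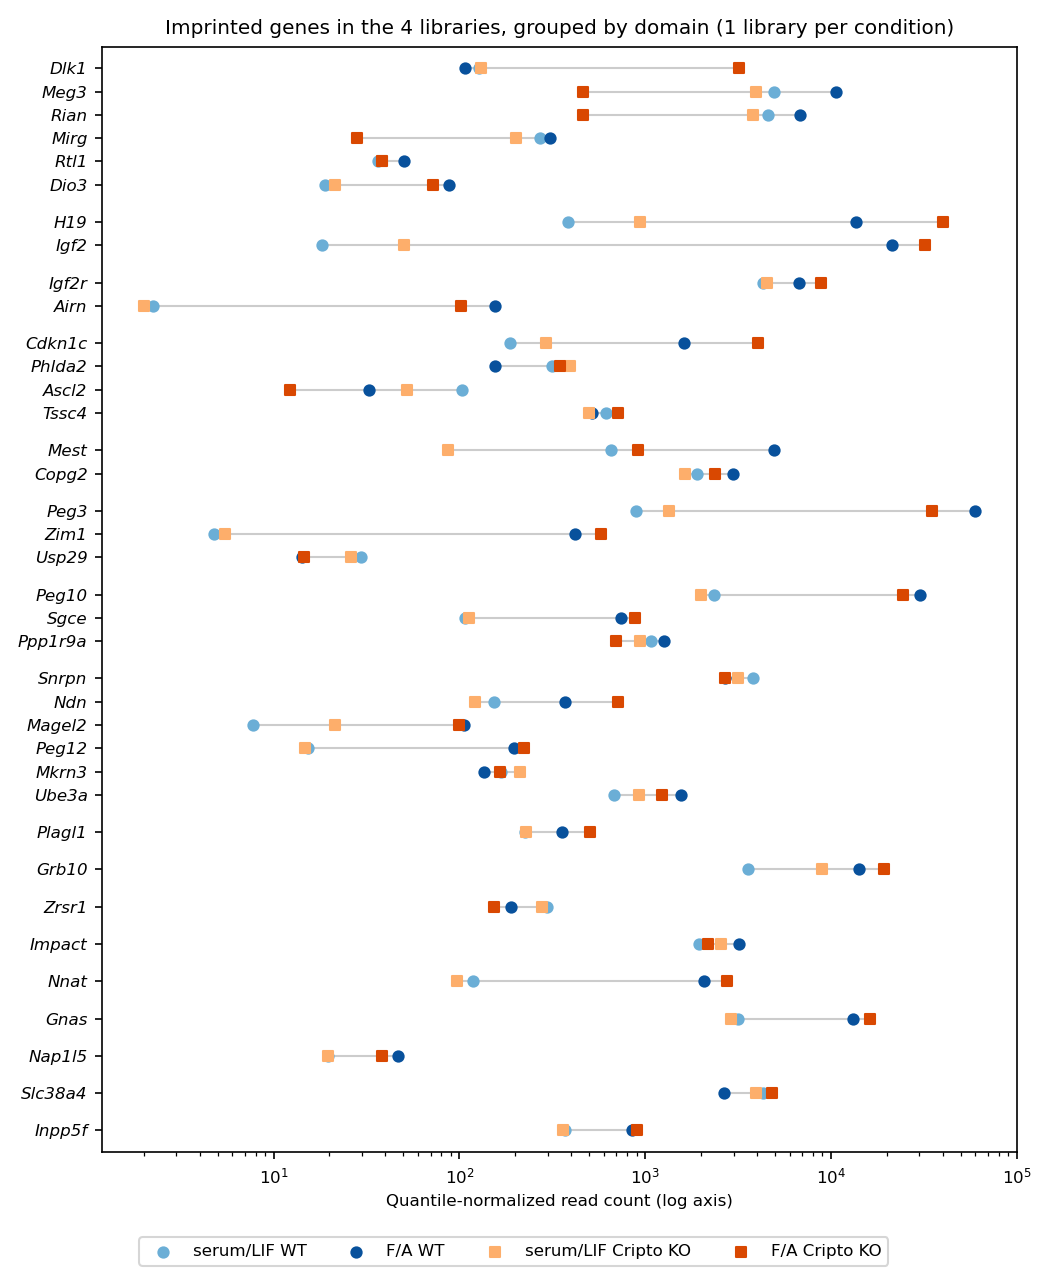
Quantile-normalized read count (log axis) of the 37 imprinted genes in the 4 libraries, grouped by domain, with circles for WT, squares for Cripto KO, light for serum/LIF and dark for F/A. The F/A points lie to the right of the serum/LIF points for most genes, and for Dlk1, Meg3, Rian and Mirg the F/A Cripto KO square stands apart from the other 3 points.

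Between the genotypes, 9 of the 37 members (24.3%) were called in F/A and 5 (13.5%) in serum/LIF. These calls are not all of separate loci. Of the 9, Dlk1, Meg3, Rian and Mirg share the Dlk1-Dio3 domain, and Cdkn1c, Phlda2 and Ascl2 share the Kcnq1 domain. Of the 5, H19 and Igf2 are neighbours. In F/A 4 members were called higher in Cripto KO (Dlk1, H19, Cdkn1c and Phlda2) and 5 lower (Meg3, Rian, Mirg, Mest and Ascl2), where 6.75% of all genes were called, 3.18% higher and 3.57% lower. In serum/LIF 4 were called higher (H19, Igf2, Grb10 and Magel2) and 1 lower (Mest), where 3.62% of all genes were called, 1.74% higher and 1.88% lower. The median log2 ratio of the members was 0.03 in F/A and -0.03 in serum/LIF, and that of all genes was 0.00 in each. Under total-count scaling the split over all genes moved, from 491 higher and 552 lower to 427 and 751 in F/A, and from 269 and 290 to 155 and 367 in serum/LIF. The 4 and 5 members called in F/A kept those numbers under that scaling, and in serum/LIF 4 were called higher and 2 lower, the second being Ascl2 at a log2 ratio of -1.06.

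**Figure D5:**
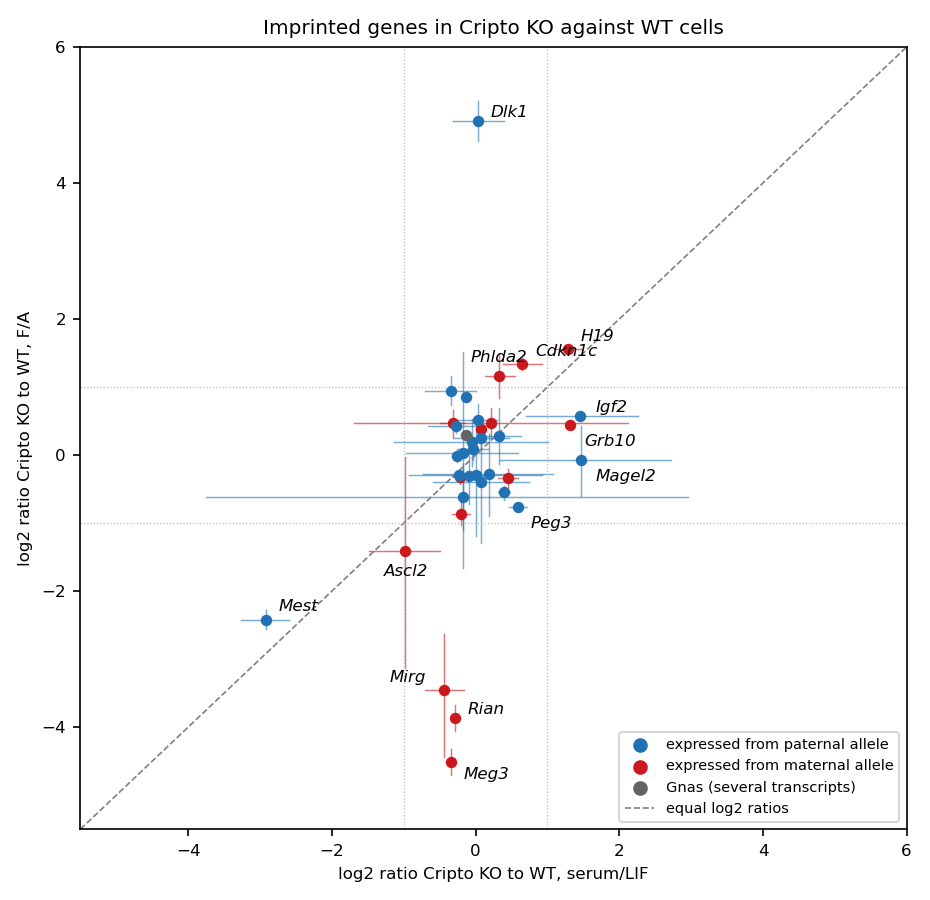
Log2 ratio of Cripto KO to WT in serum/LIF (x axis) and in F/A (y axis) for the 37 imprinted genes, coloured by the parental allele they are expressed from, with 95% counting intervals as bars, the line of equal ratios dashed and the fold threshold dotted. Dlk1 lies at 0.04 and 4.91 and Meg3 at -0.34 and -4.52, while Mest lies at -2.92 and -2.42 and H19 at 1.29 and 1.56.

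The log2 ratio of F/A to serum/LIF was larger by at least 1 in Cripto KO than in WT for Dlk1 and Ndn, and smaller by at least 1 for Meg3, Rian, Mirg, Peg3 and Magel2. Over all genes 7.69% passed this limit upwards and 9.38% downwards. The differences were 4.87 for Dlk1, 1.29 for Ndn, -4.18 for Meg3, -3.59 for Rian, -3.03 for Mirg, -1.35 for Peg3 and -1.55 for Magel2. The members just inside the limit were Ndn and Peg3, and those just outside were Slc38a4 at 0.98 and Impact at -0.95. These differences rest on 4 libraries and were not tested.

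Patterns over the 4 libraries were compared by the Euclidean distance of mean-centred log2 normalized values, as a description. The members nearest to Igf2 were Zim1 at 3.28 and Airn at 4.12, with its neighbour H19 at 4.54. The nearest to Peg10 was Peg12 at 0.41, on another chromosome, and then Sgce, its neighbour, at 0.89. The member nearest to Dlk1 was Ndn at 2.83, and the nearest to Mest was Peg10 at 2.47. Gene pairs of a domain were thus not always the closest in pattern.

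Imprinted genes beyond the set were counted in the same way. Of 48 further imprinted genes 43 were matched and 35 passed the filter, and in F/A 9 were called higher and 10 lower in WT and 7 and 9 in Cripto KO. Of all genes, 22.0% were called higher and 20.9% lower in WT and 19.3% and 18.4% in Cripto KO, against 25.7% and 28.6% of the 35 genes in WT. Their median log2 ratio was -0.31 in WT and -0.03 in Cripto KO. Ampd3, an AMP deaminase, had 524, 13, 414 and 6 counts in serum/LIF WT, F/A WT, serum/LIF Cripto KO and F/A Cripto KO, and Dcn, the proteoglycan decorin and also a fibroblast marker, had 328, 5, 417 and 18. Both were called lower in F/A in each genotype. Between the genotypes in F/A, Klf14 and Dcn were called higher and Sfmbt2 and Nespas lower in Cripto KO, and in serum/LIF Atp10a higher and Pon3 lower, genes that apart from Dcn are named after their values were seen.

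Genes that set, keep or erase methylation imprints were measured beside them. Of 18 such regulators 17 passed the filter, with 3 called higher and 7 lower in F/A in WT, and 1 higher and 7 lower in Cripto KO. Between the genotypes 0 were called in either culture. Of all genes 6.75% were called between the genotypes in F/A and 3.62% in serum/LIF, shares at which few calls would fall among 17 genes. The regulators called lower were 41.2% of the 17 in each genotype, against 20.9% of all genes in WT and 18.4% in Cripto KO, and those called higher were 17.6% in WT and 5.88% in Cripto KO, against 22.0% and 19.3%. The zinc finger factor Zfp57 had 6996, 1706, 5298 and 1256 counts in serum/LIF WT, F/A WT, serum/LIF Cripto KO and F/A Cripto KO, and its co-repressor Trim28 had 28203, 10149, 26395 and 12482. Both were called lower in F/A in each genotype. Dnmt3l, the cofactor of de novo methylation, had 4926, 13, 4522 and 8 counts, and Ctcfl, a germline paralogue of the insulator factor CTCF, had 105, 1, 49 and 0. Tet1 and Tet2, which oxidize 5-methylcytosine, were called lower in each genotype and Tet3 higher, at 355, 2787, 416 and 2428 counts. In WT alone Dnmt3b and Arid4b were called higher and Uhrf1 lower, and Arid4a was called lower in Cripto KO alone. Whether a call in 1 genotype differs from the other was not tested.

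Markers of other cell types moved with the genotype in F/A as well. Of 9 measured fibroblast markers 4 (Col1a1, Col3a1, Dcn and Pdgfrb) were called higher in Cripto KO than in WT cells in F/A, and the list summed to 182, 144, 191 and 293 cpm in serum/LIF WT, F/A WT, serum/LIF Cripto KO and F/A Cripto KO. Of 12 mesoderm markers 5 were called higher and 2 lower, with sums of 9.59, 710, 15.7 and 603. The F/A sums lean on T, at 8748 counts in WT and 5598 in Cripto KO cells, where no other mesoderm marker passed 880. T was not called between the genotypes and was also counted as a primed marker. These sums thus do not show the course of the other mesoderm markers. Among 9 trophoblast markers 3 were called higher and 1 lower. In F/A the trophoblast factors Cdx2 and Hand1 had 104 and 196 counts in WT and 674 and 1730 in Cripto KO, while Eomes had 1963 and 422. Markers of primitive and visceral endoderm summed to 23.2, 186, 17.9 and 248, with Afp at 0 in all libraries. In F/A 1 of 7 endoderm markers was called lower and 1 of 4 neural markers higher in Cripto KO, each a single gene. Of all genes, 3.18% were called higher and 3.57% lower in Cripto KO than in WT cells in F/A. The part of these cell types in the values of Dlk1, H19, Igf2, Cdkn1c and the other members was not tested.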

How the data were processed

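RNA of the 4 cultures was sequenced, with 1 library per condition. Per the labels and the study's methods, the authors deposited raw counts per gene, obtained with HTSeq 0.6.1p1 (intersection-nonempty) and Ensembl 67 gene models from paired-end reads placed on mm9 (NCBIM37) by TopHat2 2.0.13. The strand option and the read filters were not given in the sources used here. The authors also deposited a signal, the counts after full quantile normalization with preprocessCore 1.28.0, after removal of low genes by the NOISeq 2.8.0 proportion test (threshold 1 cpm) within RNASeqGUI 0.99.3. Quantile normalization of the raw counts over the libraries gave those values again, with a largest difference of 0. Quantile normalization gives every library the same distribution, so a change shared by most genes cannot be seen.

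Genes were named with an annotation of Ensembl 65 on NCBIM37, which held 37205 of the identifiers (98.9%). A value of 0 was replaced by 0.5. The interval of a ratio is the 95% Clopper-Pearson interval from the raw counts (those of F/A Cripto KO halved), carried to the normalized scale. The floor of detection was 3 counts, or 6 in F/A Cripto KO. The calculation was tested on simulated data. With 1 library per condition there is no test and the intervals cover counting error only. Alternatives were total-count scaling, TMM factors (edgeR), DESeq2 size factors, 5 added to each value, other filters and thresholds, halving F/A Cripto KO before normalization, and removal of a running median over transcript length. Members with a highest raw count of at least 50 were given with their counts in all libraries, and the others by range. Beyond the members, the text names the 4 genes with the largest log2 ratios among the called genes of the lists of further imprinted genes and regulators, and every called regulator. The further imprinted genes called between the genotypes, and Cobl, Gab1 and Phf17, are also named, and were chosen after their values were seen. The members, lists and tests were chosen with earlier results of these data known. Software was Python 3.11.15 with numpy 2.4.6, scipy 1.17.1 and pandas 2.3.3. Comparisons that share a library are not independent of each other.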

Additional observations from a re-analysis of the deposited data

Results flagged for a closer look

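The log2 ratio of F/A to serum/LIF for Meg3 was 1.10 in WT and -3.08 in Cripto KO, called in opposite directions. It was selected because the genotypes moved opposite ways under the same contrast. With 1 library per condition the difference was not tested. No group held enough libraries to look for a library far from its replicates, and no column lay outside the comparisons.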

How the results depend on the processing

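Each result was recomputed under 10 alternatives. The 1756 values of single members were ratios, judged by call and counting interval, and differences of the transitions, judged by the limit of 1. Of them, 1666 kept their call, counting interval or side of the limit, 26 lost a call or the limit, and 12 gained one. A further 52 uncalled ratios left their counting interval, and 0 values that were called or past the limit changed sign. A minimum mean of 50 raw counts, a fold of at least 3 and the fold alone left the log2 values unchanged. They supplied 165, 130 and 148 of the 1666, and for the minimum mean this was fixed in advance. The median log2 ratio over all genes moved by less than 0.1 under every scaling. A fold of at least 3, which by construction calls fewer genes, left 1 member lower in F/A in WT, 1 higher in Cripto KO in F/A and 0 higher in Cripto KO in serum/LIF. Adding 5 left 1 member lower in F/A in WT. Total-count scaling, TMM factors and DESeq2 size factors each gave 2 members lower in Cripto KO in serum/LIF, where Ascl2 joined Mest. The table without a filter was scaled by total counts as well, so it repeated the member values of total-count scaling by construction. Each of these settings supplied 175 of the 1666. The call of Phlda2 in F/A in WT, at a log2 ratio of -1.02, was lost under 7 alternatives. Igf2r gained a call in F/A in both genotypes, at log2 ratios of 1.18 and 1.12, when the running median over length was removed. This gain rests on a median annotated transcript of 532 bases for Igf2r, against 9438 merged exonic bases. The log2 ratio of Cripto KO to WT in F/A ranged over the alternatives from 4.75 to 4.91 for Dlk1, from -4.62 to -4.36 for Meg3, from -3.88 to -3.71 for Rian and from -3.69 to -3.25 for Mirg. No paired analysis was possible because each condition had 1 library, and no library could be left out for the same reason. The depth limits the members under 50 counts, such as Rtl1, Usp29 and Nap1l5, and the ratios of Airn and Zim1, whose serum/LIF counts were 6 or fewer.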
